A study of Mus musculus with 16 samples.

Results

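Hepatic stellate cells were followed through 10 genes in liver RNA of 16 db/db mice, 8 with an arcA vector and 8 with a GFP vector. The members were taken by symbol from the 40324 symbols of the count table, 5 identity or resting genes (Lrat, Reln, Des, Pdgfra and Pdgfrb) and 5 contractile genes that rise on activation (Acta2, Tagln, Myl9, Tpm2 and Cnn1). All 10 were present, and 9 passed the filter on low counts, Cnn1 being too weakly counted. Every mouse carried the db/db genotype, which removes the working leptin receptor and leads to obesity and diabetes, and the mice were littermates. The arcA livers came from mice injected with adeno-associated virus serotype 8 (AAV8, a vector that enters hepatocytes readily) carrying arcA, and the GFP livers from mice given AAV8 with GFP. Injection was at about 5 weeks of age and liver was taken 5 weeks later, at 10 weeks. The product of arcA is not described in the labels (a bacterial arginine deiminase gene is one of those that bear the name), nor are the promoter of either vector or the sex of the mice. No transgene value is reported here.

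Stellate cells lie between the sinusoidal endothelium and the hepatocytes and store vitamin A as retinyl esters. After liver injury they lose these stores, make collagen and take on a contractile, myofibroblast-like state in which smooth muscle proteins, alpha smooth muscle actin first among them, are made. Platelet-derived growth factor drives their division and migration, and transforming growth factor beta drives their matrix output. Vascular smooth muscle cells and portal fibroblasts express many of the same contractile genes, so in whole liver RNA none of the 5 contractile members belongs to stellate cells alone.

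Libraries held 37325610 to 45874797 counts in the arcA group and 28912563 to 53520828 in the GFP group. Gm42418, which overlaps ribosomal RNA sequence, took 2.45% to 7.37% of counts in arcA livers and 2.29% to 19.41% in GFP livers, with GFP 2, 3 and 5 above 11%. The tissue label held, as 18 hepatocyte genes together gave 108000 to 126000 CPM (counts relative to the scaled library total) in arcA livers and 94600 to 110000 in GFP livers. Across the 14476 genes tested, 951 were lower (6.57%) and 617 higher (4.26%) in arcA livers, 10.8% in all, with a median log2 fold change of 0.009. With scaling by library size alone the higher genes were 24% of the calls, in place of 39.3%.

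The promoters of Acta2, Myl9 and Lrat are shown because their windows held matches to a known control element of smooth muscle genes. It is the CArG box, bound by serum response factor, which with its myocardin-family partners drives smooth muscle genes. RefSeq windows (GRCm38.p6), running from 250 bases before to 50 after the gene's start, matched 8 of the 10 members; Tagln and Pdgfrb were the others. Capitals mark each CArG box of 10 bases with at most 1 C or G among its 6 inner bases. The motif reads the same on both strands, and matches could overlap.
Acta2, chr19:34255324-34255623, minus strand: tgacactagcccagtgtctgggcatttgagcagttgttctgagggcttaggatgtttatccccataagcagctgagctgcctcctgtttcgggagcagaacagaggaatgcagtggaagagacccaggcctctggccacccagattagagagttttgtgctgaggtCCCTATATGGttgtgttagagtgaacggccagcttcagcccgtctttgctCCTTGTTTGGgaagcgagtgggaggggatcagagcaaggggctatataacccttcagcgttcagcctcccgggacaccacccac
Myl9, chr2:156775214-156775513, plus strand: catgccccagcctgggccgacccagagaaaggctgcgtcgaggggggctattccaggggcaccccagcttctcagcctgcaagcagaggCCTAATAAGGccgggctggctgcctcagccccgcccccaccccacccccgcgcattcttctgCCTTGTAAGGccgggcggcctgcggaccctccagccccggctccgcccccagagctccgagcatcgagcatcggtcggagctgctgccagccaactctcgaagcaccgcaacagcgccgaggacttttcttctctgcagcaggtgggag
Lrat, chr3:82903925-82904224, minus strand: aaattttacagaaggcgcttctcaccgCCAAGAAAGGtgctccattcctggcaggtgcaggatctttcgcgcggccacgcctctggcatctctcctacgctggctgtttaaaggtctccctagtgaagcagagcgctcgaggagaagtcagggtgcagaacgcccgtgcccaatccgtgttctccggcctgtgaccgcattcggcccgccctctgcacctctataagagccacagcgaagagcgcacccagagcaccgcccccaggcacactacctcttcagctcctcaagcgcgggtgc
Acta2 held 2 boxes, starting at -84 and -34 from the RefSeq start, and Myl9 held 2, at -161 and -99. The gene coordinates given with each member below are those of GENCODE M21, whose outermost start can differ: for Acta2 it lies 217 bases before the RefSeq start, so that both boxes fall inside the gene as GENCODE bounds it. For Myl9 it lies 44 bases before the RefSeq start, and for Lrat 1 base after it, so that the boxes of these genes lie outside their GENCODE bounds. The first box of Myl9 was the one box of these windows with no inner C or G. Lrat held 1 box, at -223, and the windows of Reln, Des, Pdgfra, Tpm2 and Cnn1 held none. Among all 32851 windows, 9.98% held at least 1 such box, 0.822% at least 2, and 1.63% a box with no inner C or G. These matches describe letters in a short window and say nothing of factor binding in these livers.

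Among the identity genes, 4 of 5 fell in arcA livers, where 6.57% of all genes tested were lower. These were the 2 receptors for platelet-derived growth factor, desmin and reelin, and they stood at 61.8% to 78.8% of their GFP level. Among the contractile genes, 1 of the 4 tested fell, Tagln, to 61.6% of its GFP level. Acta2 had the largest fold change of the members, at 45.9% of its GFP level, varied most between livers among the 9 tested, and missed the threshold. None of the 9 tested members was higher in arcA livers, and the median log2 fold change was -0.52 over the 5 identity genes and -0.49 over the 4 contractile genes. In whole liver RNA, fewer cells of a type and less RNA per cell cannot be told apart.

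**Figure D1:**
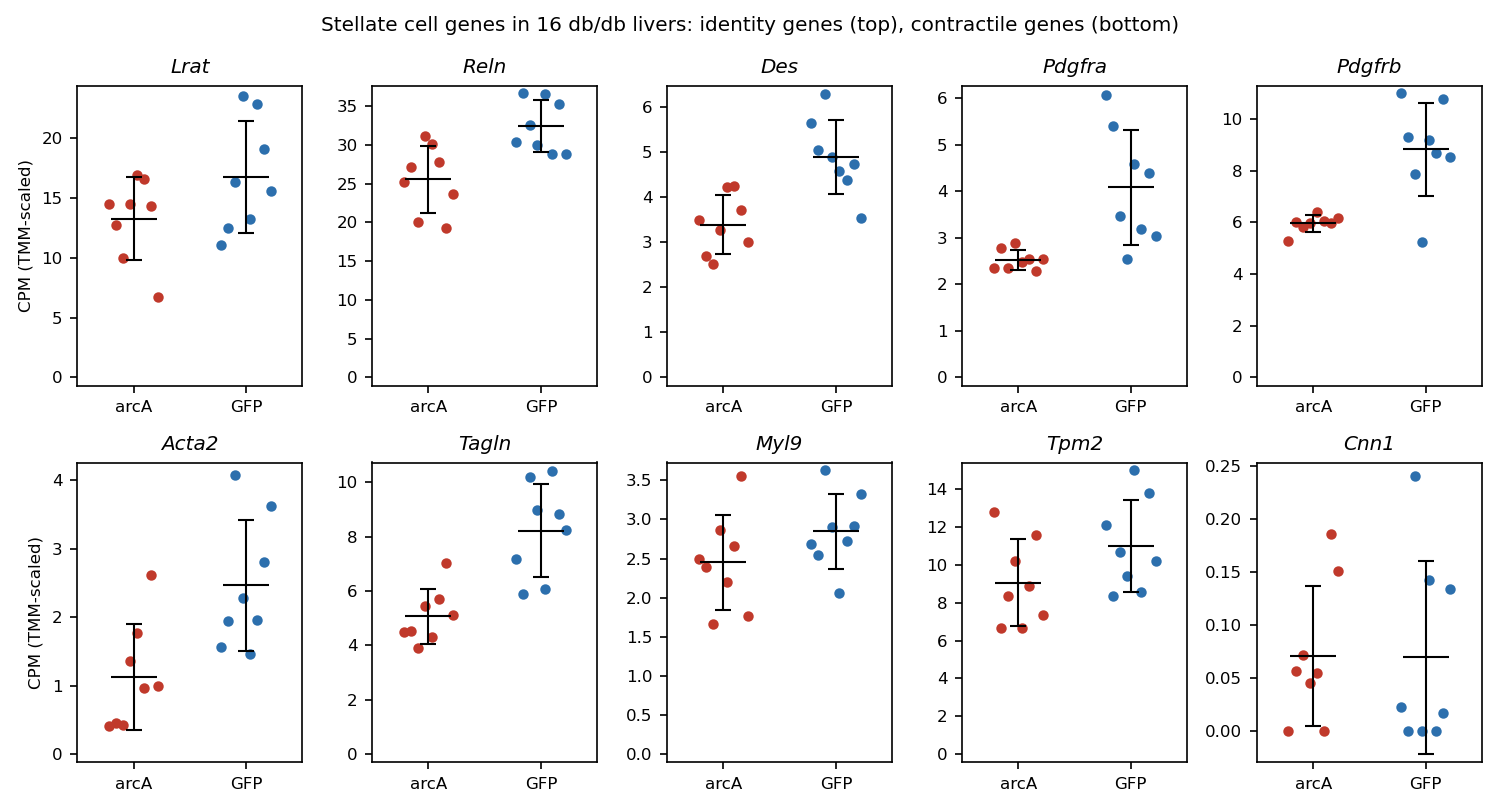
CPM (TMM-scaled) of each member in the 8 arcA and the 8 GFP livers, one point per liver, with the mean and SD in black; each panel has its own linear axis. The arcA points of Pdgfra and Pdgfrb lie close together (2.28 to 2.89 and 5.30 to 6.41 CPM), while the GFP points spread from 2.55 to 6.07 and from 5.26 to 11 CPM.

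Pdgfrb, the receptor that marks stellate cells and pericytes most widely (chromosome 18, 61045150 to 61085061, GRCm38), had 5.30, 5.99 and 6.41 CPM as its lowest, median and highest value in arcA livers, and 5.26, 8.95 and 11 CPM in GFP livers. GFP 4 lay just below every arcA liver, and the other 7 GFP livers lay above all of them. In log2 terms Pdgfrb fell by 0.57, with an SE of 0.110 (adjusted p = 0.00252 by edgeR's quasi-likelihood test with Benjamini-Hochberg adjustment over all genes), and 8 of 8 arcA livers were below the GFP median. Its coefficient of variation was 5.34% over the arcA livers and 20.3% over the GFP livers.

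Pdgfra, the receptor for the A form of the growth factor (chromosome 5, 75152292 to 75198215), is carried by resting stellate cells and by fibroblasts. Its lowest, median and highest values were 2.28, 2.5 and 2.89 CPM in arcA livers, and 2.55, 3.93 and 6.07 CPM in GFP livers. Again GFP 4 was the 1 GFP liver inside the arcA range, and GFP 1 and GFP 2 were the highest. Pdgfra fell by 0.69 (SE 0.154, adjusted p = 0.00633), with 8 of 8 arcA livers below the GFP median, and its coefficient of variation was 8.60% in arcA and 30.2% in GFP livers. The difference in spread between the groups was not tested.

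Desmin (Des, chromosome 1, 75360329 to 75368579) is the muscle-type intermediate filament by which rodent stellate cells are often stained. It had 2.51, 3.37 and 4.24 CPM in arcA livers (lowest, median and highest) and 3.54, 4.81 and 6.27 CPM in GFP livers. GFP 8 was the only GFP liver below the highest arcA liver, and 5 arcA livers lay below every GFP liver. Des fell by 0.52 (SE 0.127, adjusted p = 0.0113). Without GFP 2, 3 and 5, the libraries rich in Gm42418, its value was -0.46 and the call was lost (adjusted p = 0.0594, the highest of its 26 alternatives; the lowest was 0.000571).

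Reelin (Reln, chromosome 5, 21884454 to 22344702), a secreted glycoprotein that in liver marks stellate cells and lymphatic vessels, had the most counts of the members. It had 19.2, 26.2 and 31.1 CPM in arcA livers (lowest, median and highest) and 28.8, 31.5 and 36.7 CPM in GFP livers. Of the arcA livers, 6 lay below every GFP liver, and arcA 4 and arcA 5 reached into the GFP range. Reln fell by 0.34 (SE 0.0939, adjusted p = 0.0234). The call was lost without GFP 2, 3 and 5 (-0.27, adjusted p = 0.135) and without arcA 3 and 8 (-0.28, adjusted p = 0.0639), within a range of 0.000796 to 0.135 over 26 alternatives.

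Lrat (chromosome 3, 82892579 to 82903973) encodes lecithin retinol acyltransferase, which makes the retinyl esters that stellate cells store, and is the gene most restricted to them in liver. It had 6.72, 14.4 and 16.9 CPM in arcA livers (lowest, median and highest) and 11.1, 16 and 23.5 CPM in GFP livers. The groups overlapped widely: GFP 4, 6 and 7 lay above every arcA liver, arcA 3 and arcA 8 lay below every GFP liver, and the other 11 livers shared one range. Its log2 fold change was -0.34 (SE 0.195, adjusted p = 0.306), as for Reln (SE 0.0939). Without arcA 3 and 8 the value was -0.18 (adjusted p = 0.563). Lrat passed in 1 of 26 alternatives, that scaled on hepatocyte genes (-0.56, adjusted p = 0.0356).

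With GFP 2, 3 and 5 left out, 2 of the 5 identity genes passed, Pdgfra and Pdgfrb, and 5.51% of all genes were lower. Without arcA 3 and 8, 3 passed, these and Des, beside 7.48% of all genes. In each of the 16 fits that left out 1 library, 4 of 5 passed.

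Tagln (chromosome 9, 45929619 to 45936058) encodes transgelin, an actin-binding protein that is an early mark of smooth muscle and myofibroblast differentiation. It had 3.89, 4.82 and 7.03 CPM in arcA livers (lowest, median and highest) and 5.87, 8.54 and 10.4 CPM in GFP livers. Of the arcA livers, 7 lay below every GFP liver, and arcA 7 lay above GFP 2 and GFP 5. Tagln fell by 0.70 (SE 0.134, adjusted p = 0.00236) and passed in all 26 alternatives (adjusted p up to 0.00642). It overlaps Pcsk7 on the opposite strand, and no source used here gives the strand setting of the counting, so reads of the overlap cannot be told apart. Pcsk7 had 8649 counts over the arcA group and 7708 over the GFP group, against 1671 and 2627 of Tagln, with a log2 fold change of 0.10 (adjusted p = 0.237).

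Acta2 (chromosome 19, 34241090 to 34255590), the gene of alpha smooth muscle actin and the usual marker of activated stellate cells, was thinly counted, with 16 to 112 counts in arcA livers and 41 to 168 in GFP livers. It had 0.404, 0.978 and 2.61 CPM in arcA livers (lowest, median and highest) and 1.46, 2.12 and 4.07 CPM in GFP livers. In arcA 1, 2 and 3 the values were 0.404, 0.450 and 0.427 CPM, far below the lowest GFP liver. Of the others, arcA 5 (1.77 CPM) lay in the GFP range and arcA 7 (2.61 CPM) above the GFP median. The log2 fold change was -1.12 (SE 0.362, adjusted p = 0.0556), with 7 of 8 arcA livers below the GFP median, and its coefficient of variation was 68.9% in arcA and 39.0% in GFP livers. Acta2 passed in 5 of 26 alternatives, over which the adjusted p ran from 0.00929 to 0.125. These were DESeq2 (adjusted p = 0.00929), limma voom (adjusted p = 0.0197), the replicate block, scaling on hepatocyte genes, and the fit without arcA 7 (-1.43, adjusted p = 0.0104). In these fits the lower genes made up 8.67%, 7.88%, 6.05%, 34.2% and 5.95% of all genes tested.

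Myl9 (chromosome 2, 156775420 to 156781658) encodes the regulatory myosin light chain whose phosphorylation starts contraction. It had 1.66, 2.45 and 3.56 CPM in arcA livers (lowest, median and highest) and 2.06, 2.81 and 3.63 CPM in GFP livers. The groups shared nearly their whole range, and arcA 7 was again the highest arcA liver. The log2 fold change was -0.22 (SE 0.150, adjusted p = 0.414), and without arcA 3 and 8 it was -0.08.

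Tpm2 (chromosome 4, 43514711 to 43523765), beta-tropomyosin, which lies along the actin filament, had 6.64, 8.62 and 12.8 CPM in arcA livers (lowest, median and highest) and 8.33, 10.4 and 15.0 CPM in GFP livers. arcA 1, with the lowest Acta2 value, had the highest arcA value of Tpm2. The log2 fold change was -0.28 (SE 0.154, adjusted p = 0.284). Cnn1 (chromosome 9, 22099216 to 22109630), calponin 1, an actin-binding protein of mature smooth muscle, had 0 to 8 counts in arcA livers and 0 to 6 in GFP livers, 24 counts and 17 counts over the groups. Only the fit with no filter gave it a value, 0.16 (SE 0.845, adjusted p = 0.949), and at these counts a small change of Cnn1 could not be detected.

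**Figure D2:**
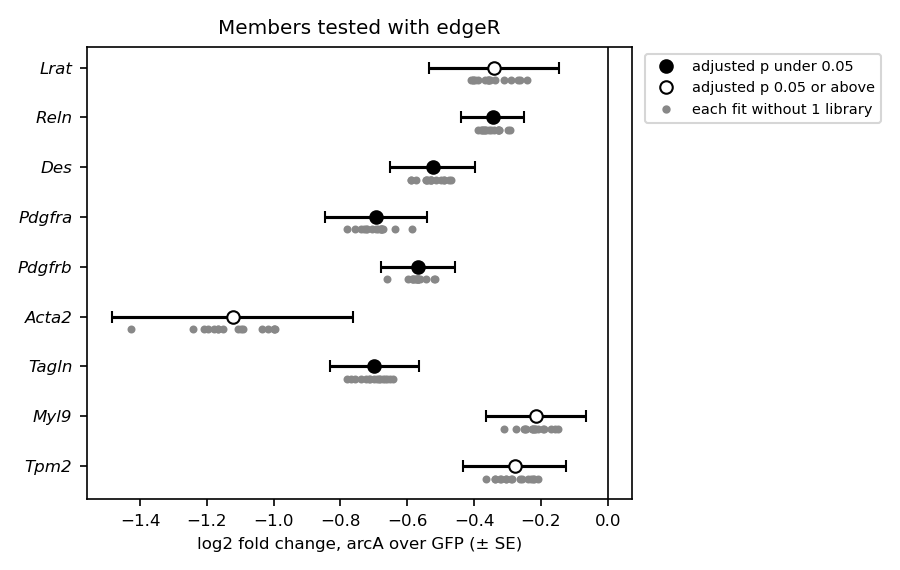
Log2 fold change of arcA over GFP for the 9 tested members (black, with SE; filled where the adjusted p was under 0.05), and the values in the 16 fits that each left out 1 library (grey). Tagln, Pdgfra, Pdgfrb, Des and Reln are filled, and the value of Acta2 moves most, between -1.43 and -1.0.

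Per length of exon the members were ordered much alike in both groups. Levels are given as RPKM (CPM per kilobase), with the joined exon length in GENCODE M21. In arcA livers Tpm2 stood highest (3.12 ± 0.791 RPKM, SD, n = 8), followed by Tagln (2.55 ± 0.503), Lrat (2.48 ± 0.642) and Myl9 (2.11 ± 0.526), and each differed from its neighbour by less than the larger SD of the pair. In GFP livers the order of the first pair was turned, with Tagln at 4.13 ± 0.866 and Tpm2 at 3.78 ± 0.833 RPKM (SD, n = 8), again within 1 SD. Pdgfrb, Reln and Des followed at 1.09, 1.08 and 0.903 RPKM in arcA livers, and at 1.61, 1.36 and 1.30 RPKM in GFP livers. Acta2 had 0.510 ± 0.351 RPKM in arcA and 1.12 ± 0.437 in GFP livers, Pdgfra 0.252 and 0.407, and Cnn1 0.0258 and 0.0253. The level of Reln rests on a joined exon length of 23738 bases, and so depends on which of its transcripts liver makes.

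The contractile and the identity genes were also set against each other within each liver, a difference in which library scaling cancels. The median log2 CPM of the contractile genes lay below that of the identity genes in every liver, by -1.78 to -0.74 in arcA livers (mean -1.30 ± 0.37, SD, n = 8) and by -2.13 to -0.85 in GFP livers (mean -1.57 ± 0.50). The ranges overlapped over most of their length, and the group means differed by 0.27, less than either SD. Taken as means over the genes in place of medians, the group values were -2.12 ± 0.41 in arcA and -2.13 ± 0.40 in GFP livers. These means include Cnn1, whose value at 0 counts (-4.33) is set by the prior count of 2. The medians include Cnn1 as well, which bears on which contractile gene is the middle one, and no balance without it was computed. With Des placed among the contractile genes, the medians gave -1.61 ± 0.17 in arcA and -1.65 ± 0.27 in GFP livers (SD, n = 8). With Pdgfrb placed there instead, they gave -0.93 ± 0.28 and -0.97 ± 0.29. In each case the group means differed by 0.04, so the 0.27 depends on the class given to these genes. The group means of the balance thus differed by less than the spread of single livers. No test was run on the balance, so this does not show that it was the same in both groups. The middle identity gene was Pdgfrb in all 16 livers, and the middle contractile gene was Myl9 in 14 livers and Acta2 in 2, so the medians describe mainly that pair. CPM is not corrected for exon length, so the sign of the difference between the classes depends on the measure. By mean RPKM, the middle contractile gene, Myl9 (2.11 in arcA and 2.45 in GFP livers), stood above the middle identity gene, Reln (1.08 and 1.36). The identity median of log2 CPM alone was 2.42 to 2.69 in arcA livers and 2.41 to 3.46 in GFP livers, with GFP 4 at 2.41 and the other GFP livers at 2.99 or above.

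**Figure D3:**
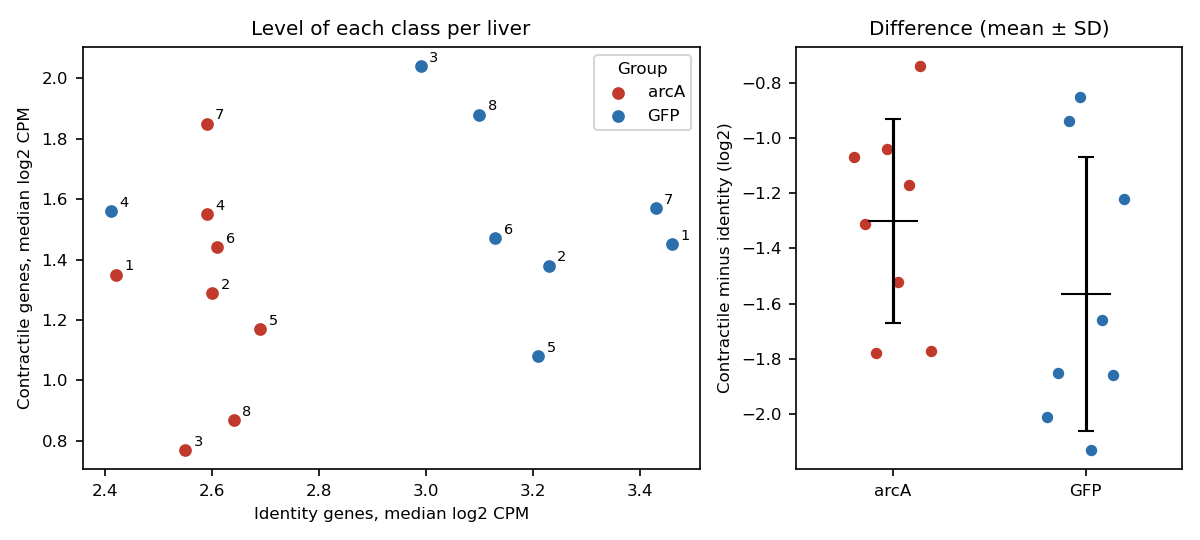
Left, median log2 CPM of the 5 identity genes against that of the 5 contractile genes, one point per liver, numbered by replicate. Right, contractile minus identity per liver, with the mean and SD of each group; the arcA livers lie between -1.78 and -0.74 and the GFP livers between -2.13 and -0.85.

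Whether members varied together within the groups was looked at pair by pair. After each gene's group mean was taken off, 36 pairs of the 9 tested members were compared over the 16 livers, with a two-sided permutation test within groups. The 2 farthest livers below are those farthest from the median of the gene named first in the pair. The second gene played no part in that choice. Tagln and Myl9 had Pearson's r = 0.73 (permutation p = 0.00146, 0.0526 after Benjamini-Hochberg adjustment over the 36 pairs) and Spearman's rho = 0.71 (permutation p = 0.00297, adjusted 0.0718), and r = 0.67 without the 2 farthest livers. Pdgfra and Pdgfrb had r = 0.77 (permutation p = 0.00548, adjusted 0.0961) and rho = 0.74 (permutation p = 0.00766, adjusted 0.0919), but r = 0.50 without the 2 farthest. For that pair rho was 0.29 over the arcA livers and 0.86 over the GFP livers. Acta2 and Tagln had r = 0.63 (permutation p = 0.00801, adjusted 0.0961) and rho = 0.53 (permutation p = 0.0338, adjusted 0.257), and r = 0.50 without the 2 farthest. Acta2 and Myl9 had r = 0.64 (permutation p = 0.0172, adjusted 0.144) and rho = 0.56 (permutation p = 0.0413, adjusted 0.257), and r = 0.61 without the 2 farthest, with rho at 0.43 over the arcA and 0.98 over the GFP livers. Reln and Pdgfra had r = 0.45 (permutation p = 0.02, adjusted 0.144) and rho = 0.64 (permutation p = 0.00399, adjusted 0.0718), and r = 0.48 without the 2 farthest, with rho at 0.71 and 0.67 within the arcA and GFP groups. None of the 36 pairs passed after adjustment by either measure, which with 16 livers does not show that the members vary independently. Lrat had r = 0.49 and rho = 0.54 with Tagln (permutation p = 0.0636 and 0.0428, adjusted 0.286 and 0.257), and rho was 0.12 over the arcA and 0.81 over the GFP livers. With Pdgfra it had r = -0.53 and rho = -0.48 (permutation p = 0.0287 and 0.0998, adjusted 0.172 and 0.359), and rho was 0.07 over the arcA and -0.83 over the GFP livers. These differences in rho between the groups were not tested.

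Among 12086 other genes with a mean of at least 1 CPM, those closest to Acta2 by the rank correlation of these deviations over 16 livers were Lsm14b, Epm2a, Dhodh, Rrp9 and Mrpl37 (rho of 0.74 to 0.77, a description without a test, predicted-gene and clone names left out). Those closest to Lrat were Atp5s, Cdc16, Apold1, Cela1 and Kars (rho of 0.78 to 0.80). No other member was among these 10 genes.

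Of 25 other genes of stellate cells, 8 fell and 0 rose, at a median of -0.23. Beside the counts of this list and those below, 6.57% of all genes tested were lower and 4.26% higher. Cygb (cytoglobin, a globin of stellate cells and fibroblasts) fell by 0.87 (SE 0.135, adjusted p = 0.000409), with 4.04 ± 0.554 CPM in arcA and 7.38 ± 1.79 CPM in GFP livers (SD, n = 8 each). The matrix gene Prelp fell by 0.44, and the extracellular superoxide dismutase gene Sod3 fell by 0.31. These 3 passed in all 26 alternatives (adjusted p up to 0.0227).

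Of 17 other genes of smooth muscle contraction, 5 fell and 0 rose, at a median of -0.13. Pcp4l1, picked out after its values were seen, had 0.73 (adjusted p = 0.0918), and it was called higher with limma voom (0.88, adjusted p = 0.00864), without GFP 3 (0.93, adjusted p = 0.0153) and without GFP 2, 3 and 5 (1.07, adjusted p = 0.0187), where 5.69%, 3.87% and 2.48% of all genes were higher. The actin cross-linker Flna fell by 0.69 (adjusted p = 3.08e-05), Tpm1 fell by 0.41, the LIM protein gene Csrp1 fell by 0.55 and Mustn1 fell by 0.93. For Flna, Tpm1 and Mustn1 the groups did not overlap, as with Flna at 11.2 to 15.5 CPM in arcA and 17.0 to 24.1 CPM in GFP livers. These genes were named for their small p, which favours groups that do not overlap. The share of all genes tested without overlap was not counted, here or for the genes below. Flna is made by most cells, leukocytes included. A list of 10 markers of vascular smooth muscle was drawn from the same smooth muscle list, so its tested members are already among the 17. Of its 5 tested members 0 passed with edgeR (2 at an unadjusted p under 0.05, and 1 fell with DESeq2), and the summed level of the 10 was 6.81 to 12.8 CPM in arcA and 9.81 to 13.1 CPM in GFP livers. Myh11, the myosin heavy chain of smooth muscle, had a log2 fold change of -0.34 (adjusted p = 0.583) and Smtn, smoothelin, of -0.11 (adjusted p = 0.669). Pln had -0.93 (adjusted p = 0.171). Itga8, an integrin shared by smooth muscle and stellate cells, had -0.54 (adjusted p = 0.0536).

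Each contractile member has relatives that other cells use. These were listed with Vim, an intermediate filament gene like Des, and 12 of the 16 were tested. Of those 12, 7 fell and 0 rose, at a median of -0.25. Tpm1, among the 7, is also counted in the smooth muscle list above. The actins of the cytoskeleton in all cells were far above Acta2. Actb had 546 ± 66.6 CPM in arcA and 670 ± 48.7 CPM in GFP livers (SD, n = 8 each) and fell by 0.30 (adjusted p = 0.0147), and Actg1 had a log2 fold change of -0.14 (adjusted p = 0.378). Of the calponins, Cnn2, which leukocytes and fibroblasts express, fell by 0.71 (adjusted p = 4.39e-05) without overlap between the groups, while Cnn3 had 0.06 (adjusted p = 0.471), a value that turned to -0.15 with scaling on hepatocyte genes. Tagln2 fell by 0.55 (adjusted p = 0.00259). The tropomyosin gene Tpm4 fell by 0.33, and Tpm3 had -0.12 (adjusted p = 0.143). Among the light chains, Myl12a fell by 0.20 (adjusted p = 0.0215), Myl12b had -0.17 (adjusted p = 0.0509) and Myl6 had -0.17 (adjusted p = 0.129). Vim, vimentin, the intermediate filament of mesenchymal cells and leukocytes, fell by 0.98 (adjusted p = 0.00294). Reads from near-identical stretches of the actins, or of Myl9 with Myl12a and Myl12b, could be split among them, so the separate values are uncertain.

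Of 22 ligands, receptors and targets of the platelet-derived growth factor and transforming growth factor beta pathways, 9 fell and 0 rose, at a median of -0.46. Pdgfa, a ligand of the receptor that Pdgfra encodes, fell by 0.38 (SE 0.0803, adjusted p = 0.00422). Tgfbr2, the type II receptor of transforming growth factor beta, fell by 0.53 with no overlap between groups (21.2 to 28.8 CPM in arcA and 29.7 to 50.2 CPM in GFP livers). Thbs1, which activates latent transforming growth factor beta, fell by 1.42. Of 19 genes of the matrix made by activated stellate cells, 10 fell and 0 rose, at a median of -0.64, and 15 fell with DESeq2, where 8.67% of all genes were lower. Their summed level was 1310 to 1860 CPM in arcA and 1320 to 1580 CPM in GFP livers. Most of it was Fn1, fibronectin, which hepatocytes also secrete, with a mean of 1310 CPM in arcA and 1100 CPM in GFP livers (log2 fold change 0.25, adjusted p = 0.106). The other 18, a split made after the values were seen, summed to 208 to 291 CPM in arcA and 309 to 451 CPM in GFP livers. Fbn1, the microfibril gene, fell by 0.77, Col6a3, a collagen chain gene, fell by 0.67, and Sparc, a collagen-binding matrix protein gene, fell by 0.59.

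**Figure D4:**
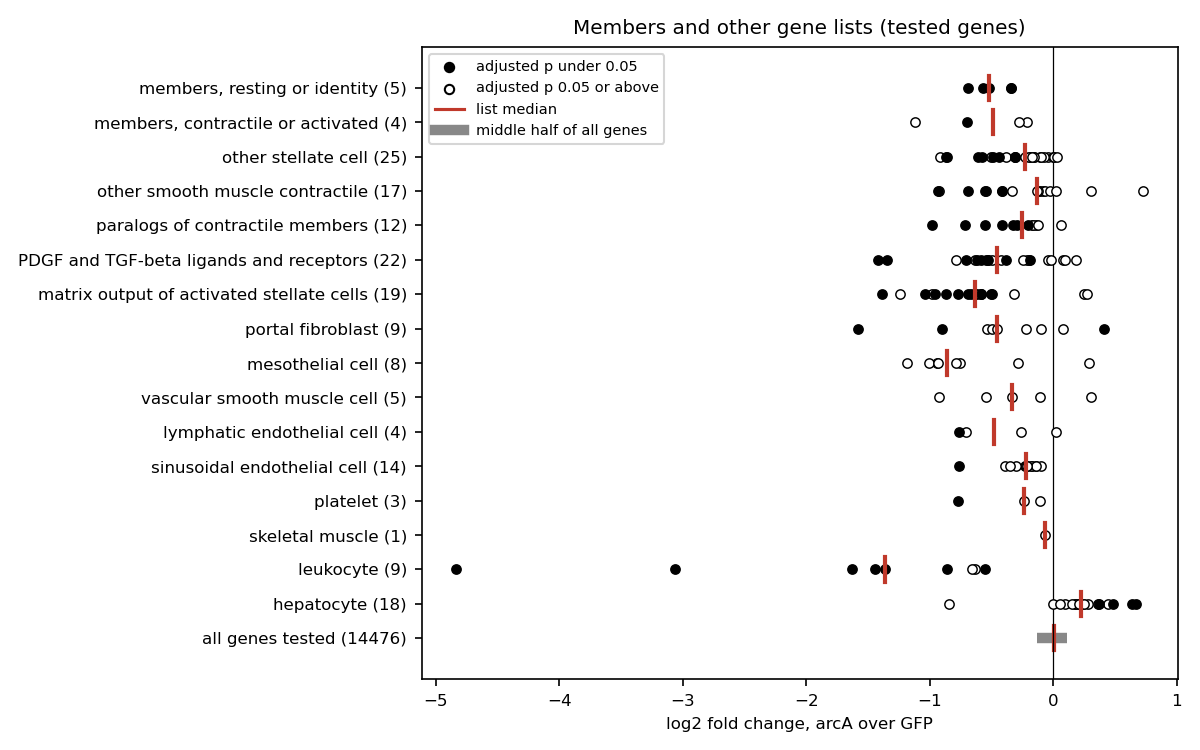
Log2 fold change of arcA over GFP for each tested gene of the members and of the other lists (filled where the adjusted p was under 0.05), with the list median in red and the number of tested genes in brackets; the grey bar at the foot runs from the lower to the upper quartile of all 14476 genes, -0.13 to 0.11. The medians of the identity and contractile members are -0.52 and -0.49.

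Markers of other cells that moved with the group stand beside these values, and their part in the results on the members was not tested. Of 9 tested leukocyte genes, 7 fell, at a median of -1.37, and the summed level of the 10 listed was 67.2 to 235 CPM in arcA and 204 to 356 CPM in GFP livers. Cd3e fell by 3.06, with 0 to 0.404 CPM in arcA and 0.775 to 1.99 CPM in GFP livers. Cd8a fell by 4.84, with 0 to 0.0985 CPM in arcA and 1.04 to 2.92 CPM in GFP livers. Of 9 tested portal fibroblast genes, 2 fell and 1 rose, at a median of -0.46. Thy1 fell by 1.58 without overlap between groups, Cd34 fell by 0.90 (called in 17 of 26 alternatives, adjusted p up to 0.0979), and Gas1 rose by 0.41. Without GFP 6 (5.37% of all genes lower), and also without GFP 2, 3 and 5, 1 portal fibroblast gene fell. The summed level of that list was 26.4 to 37.7 CPM in arcA and 24.2 to 36.9 CPM in GFP livers. Gas1, which rose, held much of that sum, with means of 17.7 CPM in arcA and 13.3 CPM in GFP livers. Of 8 mesothelial genes, 0 passed (2 at an unadjusted p under 0.05 with edgeR, and 0 with DESeq2 after adjustment). Their median was -0.86, or -0.35 without GFP 6, and they summed to 5.76 to 20.1 CPM in arcA and 6.14 to 56.1 CPM in GFP livers.

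Of 14 sinusoidal endothelial genes, 1 fell (2 with DESeq2), Lyve1 by 0.77, at a median of -0.22. Of all genes tested, 6.57% were lower (8.67% with DESeq2). The sinusoidal list summed to 143 to 205 CPM in arcA and 154 to 239 CPM in GFP livers. Lyve1 was also the 1 of 4 tested lymphatic endothelial genes that fell, and Ccl21a had 0 counts in all 16 livers. Prox1 had 0.02, with means of 83.4 CPM in arcA and 82.0 CPM in GFP livers. That is far above the other tested lymphatic genes, of which Flt4 was highest (10.4 and 12.5 CPM). The cell source of Prox1 in these livers was not tested. Of 3 tested platelet genes, Clec1b, which liver endothelium and Kupffer cells also express, fell by 0.78, and Pf4 had -0.24 (adjusted p = 0.641). The 8 platelet genes listed summed to 5.69 to 11.5 CPM in arcA and 8.99 to 14.7 CPM in GFP livers. The 1 tested skeletal muscle gene, Mylpf, had -0.07 (adjusted p = 0.878), and Myh4 and Tnnc2 had 0 counts in all 16 livers. Of those under the filter, Acta1 had 11 counts over the arcA group and 105 over the GFP group, Tnni2, a fast-muscle troponin, had 2 and 37, and Tnnt3 had 0 and 8, all 8 in GFP 4. Without a filter, the first and second of these were called lower (adjusted p = 0.00339 and 0.0117), and Tnnt3 was not (adjusted p = 0.155). The 9 listed summed to 0.688 to 0.985 CPM in arcA and 0.885 to 1.6 CPM in GFP livers. Of 18 hepatocyte genes, 4 rose and 0 fell, Fga, Fgb, Cyp2e1 and Ambp by 0.67, 0.64, 0.37 and 0.49. The 1 negative value among the 18 was -0.84, which was not called. With limma voom, and also without arcA 3 and 8, 1 hepatocyte gene was called lower, beside 7.88% and 7.48% of all genes. Ambp was called in 8 of 26 alternatives (adjusted p up to 0.165).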

How the data were processed

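Liver RNA (Trizol, oligo-dT) of 16 mice was sequenced. The authors deposited whole-number counts for each symbol and library. The submitters' processing notes name GRCm38, Subread featureCounts 1.4.6-p5, the aligner STAR 2.5.1a, and bcl2fastq. No source used here gives the annotation, the strand setting or how mates were counted; 69.8% of counts from 1 to 20 were even. Of 40757 lines, 348 exact copies were dropped and repeated symbols summed. Groups and replicate numbers came from the titles, and p-values measure the spread between these mice. Within groups, 56 pairs of libraries differed far beyond sampling noise (chi-square per gene of at least 18.5).

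CPM used TMM-scaled totals (prior count 2 for log2). The test was edgeR 4.0.16 (glmQLFit and glmQLFTest, robust, filterByExpr, group as the only term, R 4.3.3), Benjamini-Hochberg over 14476 genes, threshold 0.05. Alternatives were RLE, library size alone, scaling on hepatocyte genes, 2 other filters, DESeq2 1.42.0, limma 3.58.1 voom with quality weights, a replicate block, each library left out, GFP 2, 3 and 5 left out, and arcA 3 and 8 left out. Pairs of members were permuted 100000 times. The pipeline was tested on simulated counts. Coordinates and exon lengths came from GENCODE M21. The members and lists were chosen with earlier results of these data known. Named genes were the members, the 4 smallest p of each list, the relatives of the contractile members with Vim, and the 5 genes most like Acta2 and Lrat. Some genes that this rule names are not reported here.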

Additional observations from a re-analysis of the deposited data

Results flagged for a closer look

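In 14 of 134 groups of 8 livers, 1 liver stood apart from the rest by the gap test for outlying values, which chance alone trips in about 1 group of 20; genes that vary together are not separate tests. None of the 9 tested members was among them. GFP 6 was far above the other GFP livers in Fbn1 (5.31 CPM against 2.48 to 3.44), Cd34 (3.05 against 0.901 to 1.69), Fbln2 (4.65 against 2.17 to 3.22), Lrrn4 (5.31 against 0.601 to 1.97) and Gpm6a (11.9 against 1.70 to 5.89), genes of microfibrils, portal fibroblasts and mesothelium. Without GFP 6, Fbn1 kept its call. GFP 7 was above the other GFP livers in Tpm1 (41.2 CPM against 28.5 to 34.5) and Tpm4 (15.3 against 9.58 to 12.3). arcA 8 was above the other arcA livers in Csrp1 (11.7 CPM against 7.30 to 8.84), Fbn1 (2.51 against 1.74 to 1.95) and Itga8 (5.21 against 2.25 to 3.40). arcA 3 was above them in Ptprc (5.48 CPM against 1.6 to 2.77), Cd74 (99.5 against 19.8 to 47.0) and Fgb (5120 against 2550 to 3720), and arcA 4 in Cnn2 (4.91 against 3.81 to 4.24).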

How the results depend on the processing

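The count of identity genes that fell was 4 of 5 in 23 of 26 alternatives; it was 5 with scaling on hepatocyte genes, 3 without arcA 3 and 8, and 2 without GFP 2, 3 and 5. The contractile count was 1 of 4 tested, but 2 with DESeq2, limma voom and the replicate block, 4 with scaling on hepatocyte genes, and 1 to 2 when 1 library was left out (2 without arcA 7). Higher genes numbered 617, against 253 with library size alone, 75 with scaling on hepatocyte genes, 407 with a filter of 1 CPM in 8 libraries, 369 without GFP 2, 3 and 5, and 389 to 638 when 1 library was left out. Scaling on hepatocyte genes gave 4945 lower genes and moved the median of all genes to -0.203, so its added calls are relative to that shift; the cause of the other changes was not tested. Fits without 1 library gave 731 to 1046 lower genes. Replicate numbers were shared without a stated pairing: same-numbered livers correlated at -0.0525 to 0.199, and 1 of 8 arcA livers correlated best with its own number. With the replicate block 592 genes were higher and 876 lower, and Acta2 passed (adjusted p = 0.0464). Over 67 named genes, which leave out the 10 described only by their likeness to Acta2 or Lrat, 1639 of 1731 refitted values kept direction and side of the threshold, 35 lost and 46 gained the call, and 11 changed sign. Those were Cnn3 (-0.15) and Prox1 (-0.17) with scaling on hepatocyte genes, Prox1 without GFP 2, 3 and 5 (-0.04), without arcA 3 and 8 (-0.02) and in 5 fits without 1 library, and Mylpf without GFP 2, 3 and 5 (0.02) and without GFP 2 (0.01). Leaving out 1 library gave -0.04 to 0.1 for Prox1 and -0.16 to 0.01 for Mylpf. Depth limits Cnn1, at 0 to 8 counts per liver.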

Other observations

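Among the relatives of the contractile members, 4 were under the filter on low counts and were looked at after their values were seen. Acta1, skeletal muscle actin, which is also among the skeletal muscle genes of the report, had 11 counts over the arcA group (0 to 4 per liver) and 105 over the GFP group (0 to 38 per liver). Tested without a filter, it had -3.05 on the log2 scale (adjusted p = 0.00339, edgeR's quasi-likelihood test). Tagln3 had 26 counts over the arcA group and 8 over the GFP group, Actg2 had 22 and 32, and Actc1 had 13 and 12; with no filter these 3 had adjusted p of 0.335, 0.586 and 0.916.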
